A study of Mus musculus with 8 samples.

Results

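Chromosome 1 of the mouse genome was described by the contacts between its 500-kb bins in Hi-C maps of mouse embryonic stem cells (mESCs), with every bin graded by how rich it is in B1 or in L1 repeats. The build is mm9, and the members are the 395 bins of chromosome 1 among 5322 bins in the matrices. Bins covered at under 0.1 of the chromosome's median in any sample were dropped, which removed 9 bins, all of them with no contacts, and left 386 of the 5093 bins kept in the whole series. The least covered bin that stayed, chr1:87000001-87500000, had 0.170 of the median coverage in its lowest sample. Of the bins kept, 385 had a grade, the mean log2(B1/L1) of the study's table of repeat densities in 100-kb rows, and were cut into 5 quintiles of 77 bins from L1-rich (Q1) to B1-rich (Q5). The grade comes from the genome sequence alone, and contact counts entered the choice of members only through the coverage limit. Quintile Q1 ran up to -0.519 and Q2 began at -0.517, whereas Q4 ended at 0.297 and Q5 began at 0.301. The study set both densities relative to their genome-wide level, so a grade above 0 means that B1 exceeds its genome level by more than L1 does, not that the bin holds more B1 than L1. All bins of Q5, 68 bins of Q4 and none of the other quintiles had such a grade and are called B1-rich, giving 145 B1-rich and 240 L1-rich bins.

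L1 elements (LINE1) are long retrotransposons that copy themselves through RNA, and B1 elements are short, non-autonomous ones that borrow the L1 machinery. In mammalian chromosomes L1 is dense in gene-poor, late-replicating DNA near the nuclear lamina and the nucleolus, and B1 is dense in gene-rich DNA of the nuclear interior. Hi-C counts ligation products between pieces of DNA that lay close together in the nucleus, and its plaid pattern separates active A from inactive B compartments. Contacts between bins of the same repeat type are called homotypic here, and contacts between an L1-rich and a B1-rich bin are called heterotypic.

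The comparison asks whether these contacts differ when L1 RNA is targeted. mESCs were nucleofected with an antisense morpholino oligo against L1 RNA (L1 AMO) or with a scramble oligo (SCR AMO), both at 5 nmol per 100 μl, enriched by sorting for nucleofected cells at 12 h and harvested at 36 h. Each group has 2 samples, from experiments that the study's methods call independent. An AMO blocks its RNA target without cutting it, and the sort enriches for cells that took up the oligo, so the maps average over cells with unequal uptake. Contact counts hold no transcripts, so neither the cell type nor the level of L1 RNA could be checked in them, and the Hi-C labels give no cell line or strain. The oligos that define the groups and, as short stretches of the repeats that define the grade, a DNA FISH probe for each repeat family are shown 5′ to 3′ as the study lists them.
L1 AMO: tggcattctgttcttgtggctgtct
SCR AMO: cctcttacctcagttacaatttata
L1-mouse-1 probe: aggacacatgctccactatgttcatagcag
B1-mouse-1 probe: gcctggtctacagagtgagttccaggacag
Both AMOs are 25 bases long, with 12 G or C bases in the L1 AMO and 8 in the SCR AMO.

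The libraries differed in depth and in how much of chromosome 1 they held, and both facts touch every result. Contacts within chromosome 1 numbered 6743942 and 1324491 in SCR AMO replicates 1 and 2, and 5077411 and 4172002 in L1 AMO replicates 1 and 2. Per pair of bins at least 10 Mb apart, this was on average 22.4 and 4.07 contacts in SCR AMO against 14.5 and 11.5 in the L1 AMO samples. Chromosome 1 took 7.48% and 7.51% of the coverage of all kept bins in SCR AMO against 10.2% and 10.4% in the L1 AMO samples. The ratio of 1.37 was 1.44 times the median ratio of the other 18 autosomes. Chromosome 14 had a ratio of 1.33, and the autosomes other than these 2 lay between 0.908 and 1.01.

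The excess was not even along chromosome 1. It was larger before a window at chr1:130000001-132000000 (median ratio of a bin 1.46) than after it (1.28), and it was larger in L1-rich than in B1-rich bins, from 1.48 in Q1 to 1.25 in Q5. The same window held the most contacts of any 2-Mb pair between chromosome 1 and another chromosome in both L1 AMO samples, with chr14:98000001-100000000. That pair held 16 and 8 contacts in SCR AMO against 795 and 567 in the L1 AMO samples, or 0.696 and 1.60 against 66.3 and 63.0 times the median pair. The libraries labelled L1 AMO and SCR AMO thus differ in the content of chromosome 1 as well as in the oligo, and the 2 cannot be told apart. The main results are therefore also given for the bins before the window and the bins after it, and with bin coverage taken into account. For contrasts, frequencies and shares of a side taken alone, quintiles were cut again among the bins of that side. Only contacts within the side were used, with its own mean at each distance as the expected value. The totals of the SCR AMO matrices also depart from the valid read pairs that the study tabulates, whereas those of the L1 AMO samples are close to them, and the part of this in the results was not tested.

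In control cells the contacts of chromosome 1 followed the repeat grade. The observed/expected frequency, the balanced contact count of a pair over the mean at the same distance, was 1.78 and 1.80 between Q5 bins in the SCR AMO samples. Between the opposite ends of the ranking, Q1 with Q5, it was 0.620 and 0.628. Over all pairs at least 2 Mb apart, L1-rich bins preferred each other far less, with 1.03 in both SCR AMO samples for Q1-Q1 pairs. That mean covers a dependence on distance. At 2 to 5 Mb Q1-Q1 pairs had 1.25 and 1.23 in the SCR AMO samples, and Q5-Q5 pairs 0.996 and 0.989. Beyond 120 Mb Q1-Q1 pairs had 0.758 and 0.760, and Q5-Q5 pairs 1.97 and 1.95. The first eigenvector of the contact map is the usual measure of A and B compartments. It was taken from the mean map of the SCR AMO and L1 AMO samples together, not from control cells alone. The grade and this eigenvector had the same sign in 320 of 385 bins (83.1%). Pearson r was 0.823 and Spearman rho 0.840 across bins, which share chromosome position and base composition. The bins that disagreed were mostly L1-rich bins with a positive, A-type eigenvector (53 bins), and only 12 were B1-rich with a negative one. All 77 bins of Q5 and 2 bins of Q1 had a positive eigenvector.

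In L1 AMO cells the grading of contacts was flatter. The repeat contrast, the mean of the Q1-Q1 and Q5-Q5 frequencies over that of Q1-Q5 for pairs at least 2 Mb apart, was 2.26 and 2.25 in SCR AMO against 2.04 and 1.95 in the L1 AMO samples. The groups did not overlap, and the means differed by -11.7%, a difference of -0.263 beside SDs of 0.0107 and 0.0620 within the groups. A two-sided exact permutation test gave p = 0.333, the smallest p that 2 samples against 2 allow, so no value compared in this way can pass a threshold of 0.05. With the bins before the window alone the contrast was 1.94 and 1.94 against 1.71 and 1.63, and with the bins after it alone 2.63 and 2.7 against 1.94 and 1.87. With the flat level of contacts between chromosomes subtracted, the difference was -0.282. The slope of observed/expected frequency on the product of the 2 standardized grades, which uses all quintiles, was 0.215 and 0.217 in SCR AMO against 0.184 and 0.172 in the L1 AMO samples.

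The flattening was unequal at the ends of the ranking. Between Q5 bins the observed/expected frequency was 1.64 and 1.54 under L1 AMO, a change of -11.1% from the SCR AMO mean. Between Q4 and Q5 bins it was 1.31 and 1.32 in the SCR AMO samples against 1.24 and 1.20, a change of the mean of -7.12%. B1-rich DNA thus met other B1-rich DNA less often in both L1 AMO samples. Between Q1 bins the L1 AMO values of 1.00 and 1.03 overlapped the SCR AMO values of 1.03 and 1.03. The log2 ratio of Q5-Q5 to Q1-Q1, a measure chosen after the values were seen, was 0.78 and 0.81 in SCR AMO against 0.71 and 0.57 in the L1 AMO samples, again without overlap (exact permutation p = 0.333).

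Contacts of the 2 most L1-rich quintiles with Q4 and Q5 were higher, and those of Q3 with Q4 and Q5, also mostly heterotypic, were lower, though Q2-Q5 and Q3-Q4 turned without balancing. Between Q1 and Q4 the observed/expected frequency was 0.773 and 0.781 in SCR AMO against 0.825 and 0.840 in the L1 AMO samples, higher by 7.14%. Between Q1 and Q5 it was 0.647 and 0.659 under L1 AMO, higher by 4.73%. Between Q3 and Q5, where every Q3 bin is L1-rich and every Q5 bin B1-rich, it was 1.02 and 1.01 in SCR AMO against 0.964 and 0.945, a change of -6.00%. Of the 15 pairs of quintiles, both L1 AMO samples exceeded both SCR AMO samples in 8 (53.3%) and were below them in 5 (33.3%), and the groups overlapped in Q1-Q1 and Q1-Q2. These 5 lower pairs joined Q3, Q4 or Q5 to Q4 or Q5, and the 8 higher pairs held Q1 or Q2 or were Q3-Q3. The direction of Q2-Q2, Q2-Q5, Q3-Q3 and Q3-Q4 turned under an alternative setting, and that of the other 9 separated pairs did not. Of these 9, Q1-Q3 and Q3-Q5 overlapped with the bins before the window alone, Q1-Q5 with the background between chromosomes taken off, and Q4-Q4 with that background off and without balancing. Adjusted over the 15 pairs, the smallest exact permutation p was 0.385.

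**Figure D1:**
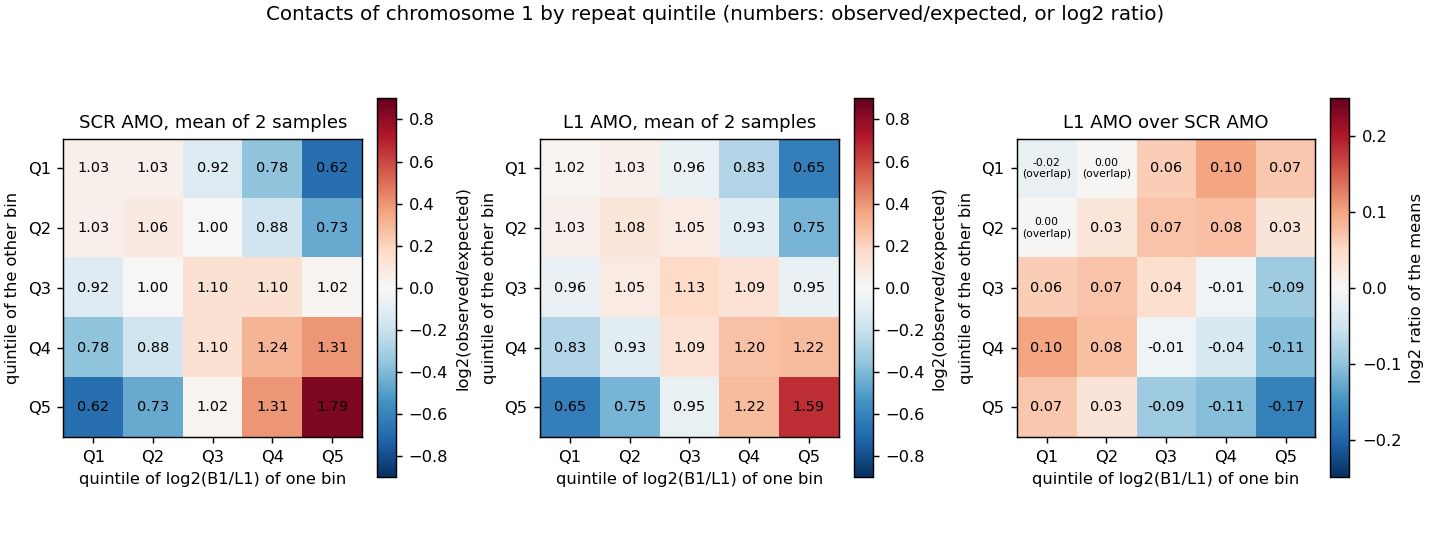
Observed/expected contact frequency of chromosome 1 for pairs of repeat quintiles (both axes, Q1 L1-rich to Q5 B1-rich; pairs at least 2 Mb apart), as the mean of 2 samples for SCR AMO and L1 AMO and as the log2 ratio of the means; cells marked overlap have groups that overlap. The Q5-Q5 corner is 1.79 in SCR AMO and 1.59 in L1 AMO, and the Q1-Q5 corners are 0.62 and 0.65.

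Both sides of the window showed the lower Q5-Q5 and the higher Q1-Q5 frequency. Before the window Q5-Q5 was 1.49 in both SCR AMO samples against 1.35 and 1.28, and Q1-Q5 was 0.677 and 0.673 against 0.718 and 0.735. After the window Q5-Q5 was 1.48 and 1.50 against 1.28 and 1.23, and Q1-Q5 was 0.524 and 0.507 against 0.632 and 0.642. On each side taken alone Q1-Q1 no longer overlapped and was lower in the L1 AMO samples, with a change of the mean of -2.36% before the window and -6.92% after it. The quintiles of a side were cut among its own bins, so these values rest on other bins and another expected value than those of the whole chromosome. In the quintiles of the whole chromosome, Q1 had 63 bins before the window and 14 after it, and Q5 had 34 and 42. The window thus splits the ends of that ranking unevenly.

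The difference depended on distance. For bins 2 to 10 Mb apart the contrast was 1.94 and 1.92 in SCR AMO against 1.52 and 1.49 under L1 AMO, a change of -22.2%. It was 2.37 and 2.35 against 1.88 and 1.80 at 10 to 40 Mb, a change of -22.0%, and 2.47 and 2.52 against 2.22 and 2.11 at 40 to 80 Mb, a change of -13.1%. Beyond 80 Mb the values of 2.12 and 2.07 in SCR AMO against 2.16 and 2.07 in the L1 AMO samples overlapped, with a difference of 0.0255. Under SCR AMO the contrast was already 2.31 and 2.30 at 10 to 20 Mb, and under L1 AMO both samples first exceeded these values at 80 to 120 Mb, with 2.49 and 2.42. The log2 contrast at 10 to 40 Mb minus that beyond 80 Mb, a measure chosen after the values were seen, was 0.16 and 0.18 in SCR AMO against -0.21 and -0.20 in the L1 AMO samples (exact permutation p = 0.333). With the bins before the window alone it was 0.19 and 0.08 against -0.24 and -0.15.

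Q1-Q5 pairs differed most at 5 to 20 Mb. At 5 to 10 Mb Q1-Q5 pairs had an observed/expected frequency of 0.610 and 0.612 in SCR AMO against 0.739 and 0.750 in the L1 AMO samples. At 10 to 20 Mb the same pairs had 0.579 and 0.580 against 0.703 and 0.701. Beyond 120 Mb they were lower under L1 AMO, with 0.752 and 0.781 against 0.710 and 0.727. Q5-Q5 pairs were lower in both L1 AMO samples in each of the 7 bands, for example 1.63 and 1.63 against 1.40 and 1.33 at 20 to 40 Mb. Q1-Q1 pairs at 10 to 20 Mb, with 1.20 and 1.16 against 1.19 and 1.20, overlapped.

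**Figure D2:**
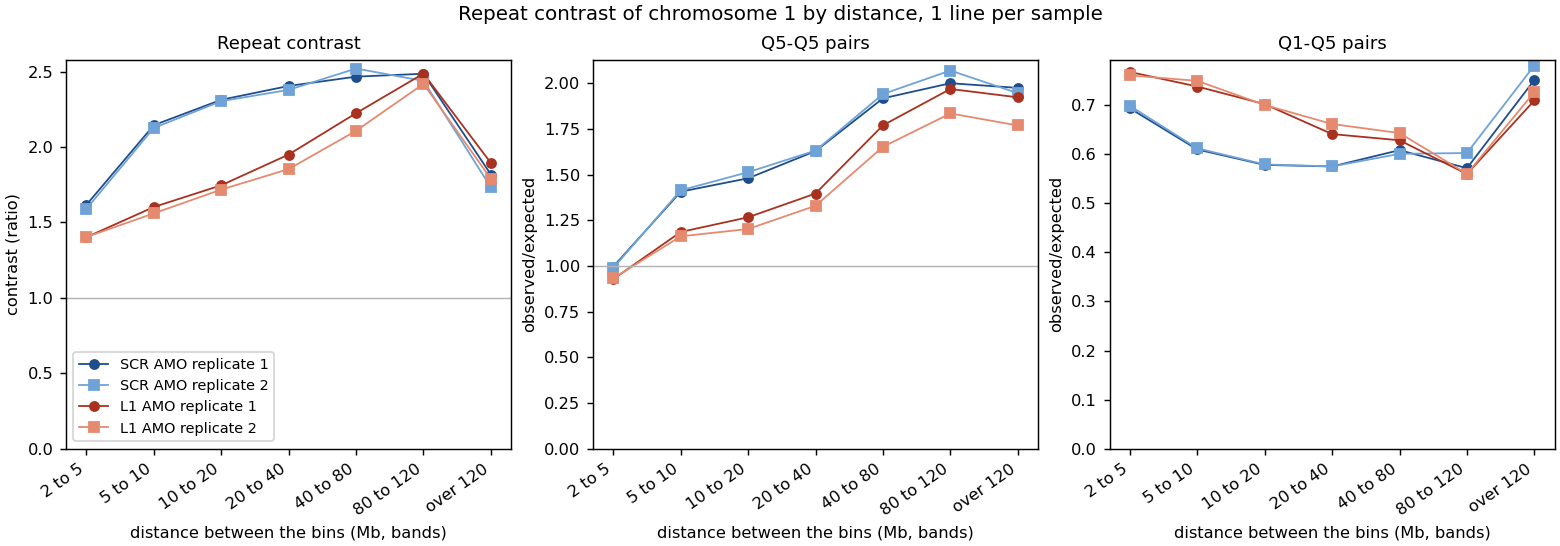
Repeat contrast (left), Q5-Q5 (middle) and Q1-Q5 (right) observed/expected frequency of chromosome 1 on the vertical axes against the distance between the bins in 7 bands of Mb, with 1 line per sample. The SCR AMO and L1 AMO lines are apart at 5 to 10 Mb (contrast 2.14 and 2.13 against 1.60 and 1.56) and meet at 80 to 120 Mb (2.49 and 2.44 against 2.49 and 2.42).

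L1-rich and B1-rich bins also spent their contacts at different distances. Of all contacts within chromosome 1, those 2 to 10 Mb apart accounted for 11.8% and 11.1% in SCR AMO against 13.9% and 13.8% in the L1 AMO samples. Those over 80 Mb apart accounted for 2.71% and 2.42% against 1.93% and 1.71%. For the bins of Q5, contacts 10 Mb or more apart took 30.1% and 28.4% in SCR AMO against 24.4% and 23.0% in the L1 AMO samples. For the bins of Q1 the same share was 23.4% and 22.4% against 22.0% and 22.0%. The change of the mean was thus -5.53 percentage points in Q5 and -0.855 in Q1. Contacts 2 to 10 Mb apart were higher in every quintile, by 3.66 points in Q1 and 2.52 in Q5. Contacts within 2 Mb had a higher share under L1 AMO in Q5 (56.8% and 59.2% against 60.3% and 61.8%) and a lower one in Q1 (61.3% and 63.0% against 59.4% and 59.4%). The bins before the window alone gave a change of -3.21 points in Q5 for the share at 10 Mb or more, and in Q1 the groups then overlapped. That share leaves out contacts across the window and uses quintiles cut within the side, so it is not the same quantity as the -5.53 points. On each side of the window taken alone the groups also overlapped in the share of Q5 within 2 Mb, with 60.3% and 62.5% against 61.8% and 62.9% before it and 68.2% and 70.3% against 70.2% and 71.1% after it.

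**Figure D3:**
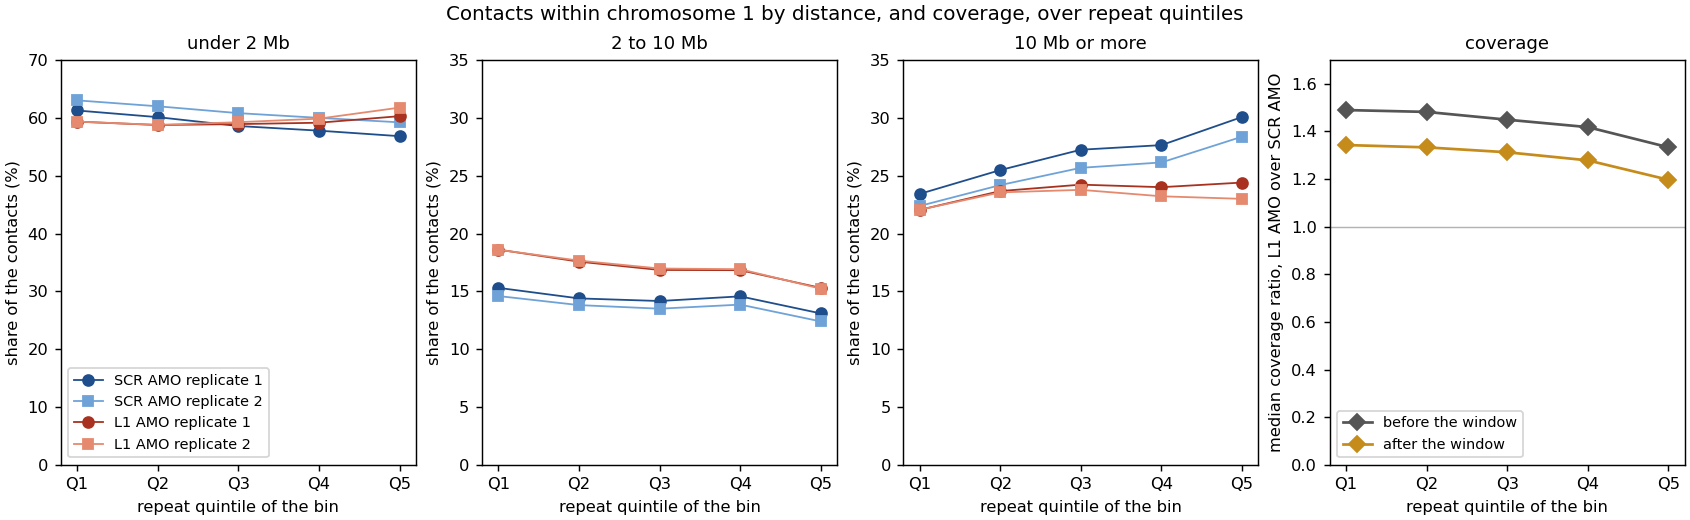
Share of the contacts within chromosome 1 (%) that fall under 2 Mb, at 2 to 10 Mb and at 10 Mb or more for bins of each repeat quintile, 1 line per sample, and (right) the median ratio of bin coverage between L1 AMO and SCR AMO on each side of the window at 130 to 132 Mb. At 10 Mb or more the SCR AMO lines climb to 30.1% and 28.4% in Q5 while the L1 AMO lines stay at 24.4% and 23.0%, and the coverage ratio falls from Q1 to Q5 on both sides (1.49 to 1.33 before, 1.34 to 1.20 after).

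Bin by bin, the preference for B1-rich over L1-rich partners was more often lower in Q3 to Q5 and more often higher in Q1 and Q2. The preference of a bin is the log2 ratio of its mean observed/expected frequency with Q5 to that with Q1. Both L1 AMO samples fell short of both SCR AMO samples in 181 of 385 bins (47.0%) and were above them in 91 (23.6%). The median change over all bins was -0.11, and without balancing only 42 bins were higher. In Q5, 58 of 77 bins were lower and 3 higher, with a median change of -0.26. In Q1, 14 bins were lower and 42 higher, with a median change of 0.18. The step between the quintiles lay between Q2, with 35 bins higher and 18 lower, and Q3, with 8 higher and 42 lower. All 77 bins of Q5 kept a positive preference in every sample. The same split stood on both sides of the window, with 28 of 34 Q5 bins lower before it and 30 of 42 after it. These counts used the quintiles and expected values of the whole chromosome.

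Most L1-rich bins with an A-type eigenvector had a lower preference, as the bins of Q5 did. Of these 53 bins, 36 were lower (67.9%) and 2 higher (3.77%), beside 47.0% and 23.6% of all 385 bins. Most of the 53, 36 bins, were in Q3, where 54.5% of all bins were lower. The median preference of the 53 was 0.61 and 0.60 in the SCR AMO samples against 0.39 and 0.31. The eigenvector was computed from the same maps, so this is a description and not a test. Of the 12 B1-rich bins with a B-type eigenvector, 6 were lower (50.0%, near the 47.0% of all bins) and none was higher.

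**Figure D4:**
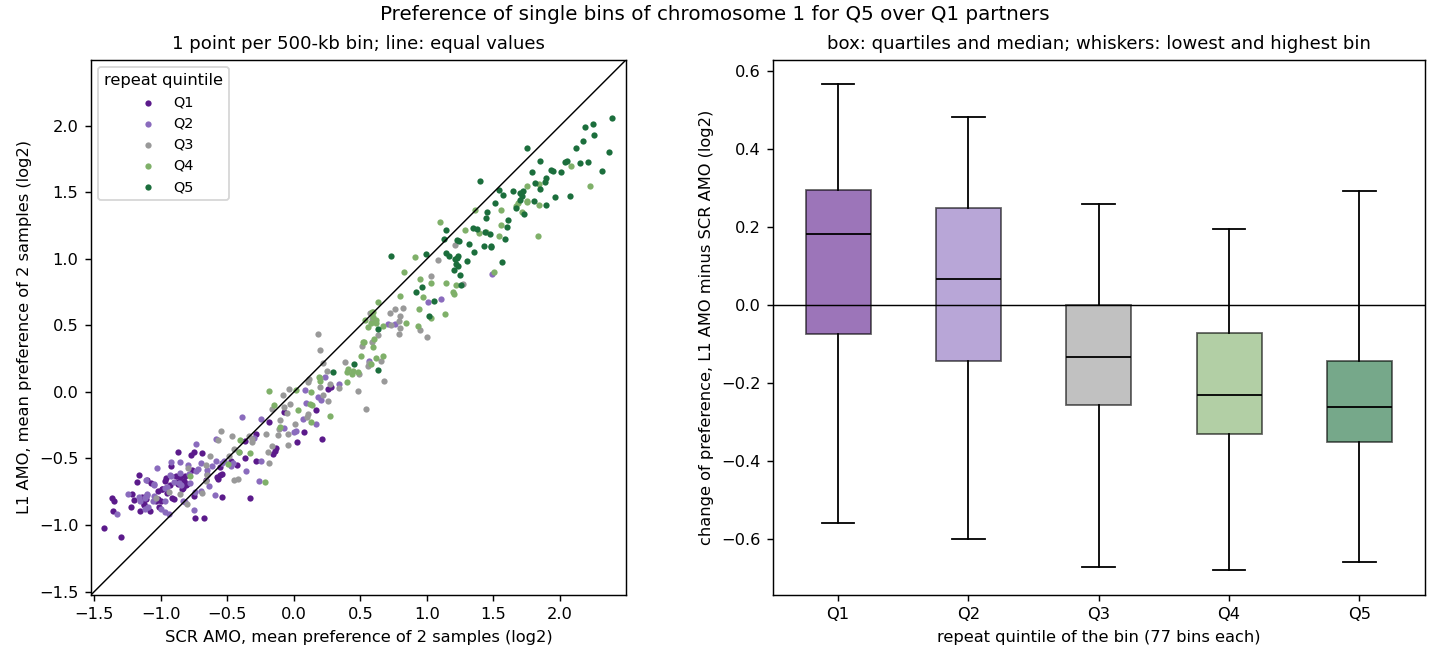
Preference of each 500-kb bin of chromosome 1 for Q5 over Q1 partners (log2), L1 AMO mean against SCR AMO mean of 2 samples with the line of equal values (left), and the change of preference by repeat quintile (right; box with quartiles and median, whiskers to the lowest and highest bin, 77 bins each). The median change goes from 0.18 in Q1 to -0.26 in Q5, so the points tilt away from the line at both ends.

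The bins with the largest shifts among those whose groups did not overlap show what moved. At chr1:49000001-49500000, a Q1 bin, the preference was -1.13 and -1.60 in SCR AMO against -0.78 and -0.82 in the L1 AMO samples. Its frequency with Q5 bins was 0.466 and 0.350 against 0.533 and 0.515, and with Q1 bins 1.02 and 1.06 against 0.915 and 0.909. It therefore had more contacts with B1-rich and fewer with L1-rich bins. The preference of the Q1 bins at chr1:144500001-145000000 and chr1:27500001-28000000 moved the same way, by 0.54 and 0.53. At the bin at 27.5 Mb only the frequency with Q5 bins was apart, with 0.422 and 0.402 against 0.541 and 0.590. Its frequency with Q1 bins overlapped, with 1.08 and 1.02 against 0.962 and 1.04. The largest shift in Q5 was at chr1:89000001-89500000, with a preference of 2.15 and 2.48 against 1.80 and 1.52 and a frequency with Q5 bins of 1.91 and 2.11 against 1.61 and 1.55. In the other direction, the Q1 bin at chr1:8500001-9000000 went from 0.23 and 0.18 to -0.30 and -0.40. The Q5 bin at chr1:120500001-121000000 went from 0.74 and 0.72 to 1.14 and 0.91. The first of these 2 preferred B1-rich partners in control cells in spite of its grade.

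Longer stretches of a single repeat type gave the same picture at a larger scale. Chromosome 1 had 43 L1-rich and 42 B1-rich runs of bins, with a median length of 1.50 Mb and 1.00 Mb. The 4 longest of each kind are named by letters in chromosome order, lower case for L1-rich and capital for B1-rich. The L1-rich ones are k (chr1:24500001-33500000), n (chr1:40000001-51500000), q (chr1:96000001-107500000) and s (chr1:108000001-120500000). The B1-rich ones are M (chr1:36000001-40000000), P (chr1:87000001-96000000), T (chr1:133000001-139000000) and V (chr1:179000001-185500000). T is the most B1-rich, with all of its 12 bins in Q5, and T and V lie after the window.

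Of the 28 pairs of these stretches, both L1 AMO samples were above both SCR AMO samples in 11 (39.3%) and below them in 9 (32.1%). All 11 higher pairs were heterotypic, out of 16 heterotypic pairs. None of the 6 L1-L1 pairs was higher and 3 were lower, but these 3 (ks, nq and ns) turned without balancing. None of the 6 B1-B1 pairs was higher and 4 were lower. The groups overlapped in the remaining 8 pairs. Of the 8 heterotypic pairs on the same side of the window 7 were higher and none lower, and of the 8 across it 4 were higher and 2 lower. Among the others, the higher pairs qT and sV and the lower pair MV turned under an alternative setting.

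The heterotypic pair of neighbours k and M showed the largest difference. Its observed/expected frequency was 0.521 and 0.527 in SCR AMO against 0.701 and 0.712 in the L1 AMO samples, a log2 ratio of 0.43. P with its L1-rich neighbour q had 0.574 and 0.594 against 0.696 and 0.714. With s, which lies beyond q and 12 Mb from P, it had 0.561 and 0.578 against 0.679 and 0.715. Among B1-rich stretches P and T had 1.73 and 1.77 against 1.45 and 1.35, a log2 ratio of -0.32, and T and V had 1.71 and 1.64 against 1.58 and 1.46. The 2 lower heterotypic pairs both joined n to stretches beyond the window. The larger was nV, with 1.07 and 1.13 against 0.898 and 0.969. The B1-rich pairs MT and PV overlapped between the groups. MT had 2.12 and 1.88 in SCR AMO against 2.00 and 2.03 in the L1 AMO samples.

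For a test of single regions, contacts were summed over segments of 2.5 Mb, which gave 78 graded segments of chromosome 1, 43 L1-rich and 35 B1-rich, cut into quintiles of their own mean grade. Each pair of segments entered a quasi-likelihood test of edgeR, with Benjamini-Hochberg adjustment over 28036 pairs of all chromosomes. The offset was the distance decay of each chromosome in each sample, so a difference in the level of a whole chromosome is removed before the test. Of 3003 pairs of chromosome 1, 453 were higher and 356 lower in L1 AMO at an adjusted p under 0.05. That is 15.1% and 11.9%, near the 16.2% and 12.6% of all pairs. Of the pairs of chromosome 1, 1035 lie over 80 Mb apart, where 2.51% rose and 3.09% fell. Distances were not matched between chromosomes, so these shares do not show whether chromosome 1 had an excess of calls. Without the distance offset the excess of contacts in chromosome 1 dominated, with 1597 pairs higher and 35 lower after TMM scaling (26.4% and 22.0% of the pairs of all chromosomes were called) and 1191 and 170 with library totals (14.8% and 40.2% over all chromosomes). The median log2 change was 0.34 after TMM and 0.17 with library totals for the pairs of chromosome 1, and 0.00 and -0.18 for those of all chromosomes. With bin coverage in the offset beside distance 366 were higher and 351 lower (15.0% and 13.6% over all chromosomes), and 570 pairs were called in both fits. Without SCR AMO replicate 1, the deepest sample, 91 were higher and 87 lower.

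The calls followed the grade. Of all pairs of chromosome 1, 15.1% rose and 11.9% fell. Among the 595 pairs of 2 B1-rich segments 10 rose (1.68%) and 216 fell (36.3%). Among the 1505 heterotypic pairs 295 rose (19.6%) and 101 fell (6.71%). The extremes were Q5-Q5, where 69 of 105 pairs fell and none rose, and Q1-Q4, where 99 of 240 rose and 7 fell. With bin coverage in the offset 12.2% of all pairs were higher and 11.7% lower. The B1-B1 pairs kept their direction in that fit, with 23 higher (3.87%) and 174 lower (29.2%). So did the heterotypic ones, with 275 (18.3%) and 92 (6.11%). The 903 pairs of 2 L1-rich segments did not keep theirs. In the first fit 148 of them were higher (16.4%, near the share of all pairs) and 39 lower (4.32%). With coverage in the offset 68 were higher (7.53%) and 85 lower (9.41%). For L1-L1 contacts the direction therefore rests on how the excess coverage of L1-rich DNA is treated.

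Distance and the window mattered here as well. At 10 to 40 Mb 37 of 38 Q5-Q5 pairs fell and 37 of 70 Q1-Q5 pairs rose. Of all pairs of chromosome 1 in that band 20.2% fell and 28.4% rose. Beyond 80 Mb 4 of 28 Q5-Q5 pairs fell (14.3%) and none of 77 Q1-Q5 pairs rose, where counts per pair were also lowest. Of all pairs beyond 80 Mb only 3.09% fell and 2.51% rose, so few calls of any kind were made there. Before the window 27.1% of all pairs rose and 4.08% fell, and after it 7.69% rose and 48.0% fell. Beside these shares, 215 of 578 heterotypic pairs before the window rose (37.2%) and 19 fell (3.29%). After the window 23 of 144 rose (16.0%) and 40 fell (27.8%). B1-B1 pairs fell in 24 of 136 cases before the window (17.6%) and in 104 of 153 after it (68.0%). With bin coverage in the offset 17.2% of all pairs rose and 10.5% fell before the window, and 20.0% and 26.5% after it. Heterotypic pairs after the window then had 49 higher and 14 lower. B1-B1 pairs then fell in 42 cases (30.9%) before the window and 66 (43.1%) after it.

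**Figure D5:**
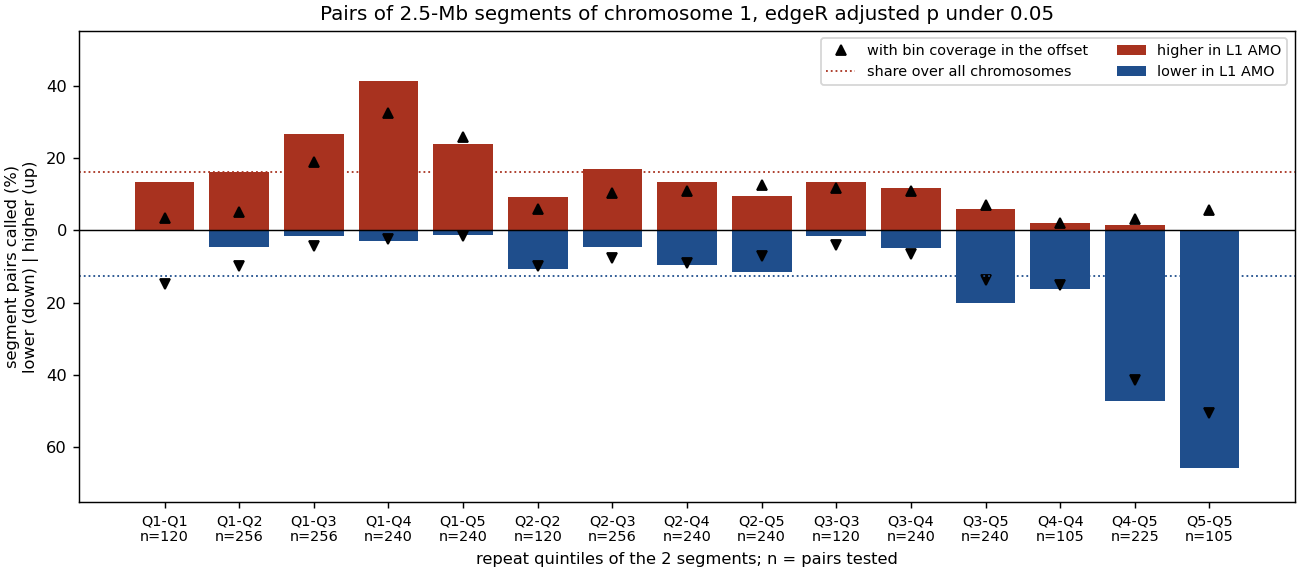
Share of pairs of 2.5-Mb segments of chromosome 1 (%) called higher (bars upward) or lower (bars downward) in L1 AMO at an adjusted p under 0.05 by edgeR's quasi-likelihood test, for each pair of repeat quintiles; triangles give the shares with bin coverage in the offset, and dotted lines the 16.2% and 12.6% over all chromosomes. Q5-Q5 (65.7% lower) and Q4-Q5 (47.1% lower) stand lowest and Q1-Q4 (41.3% higher) highest, and for Q1-Q1 the bars show 13.3% higher and none lower where the triangles show 3.33% and 15.0%.

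Of the 4 largest rises among called pairs with groups apart, 2 were heterotypic pairs 30.0 and 25.0 Mb apart and before the window. For segment pairs the observed/expected frequency is the unbalanced count over the count expected from distance alone, so differences in bin coverage enter it. Between chr1:27500001-30000000 (Q1) and chr1:57500001-60000000 (Q5) it was 0.431 and 0.337 in the SCR AMO samples, from 405 and 58 contacts, and 0.754 and 0.811 in the L1 AMO samples, from 502 and 439. The log2 change was 0.92, with an adjusted p of 8.11e-20 by edgeR's quasi-likelihood test, and 0.83 with bin coverage in the offset. Between chr1:47500001-50000000 (Q1) and chr1:72500001-75000000 (Q5) it was 0.409 and 0.426 against 0.697 and 0.712, with a log2 change of 0.77 and an adjusted p of 8.75e-15 by edgeR. Both pairs include a named Q1 bin, at 27.5 and at 49.0 Mb, from the same contacts. The other 2 rises joined chr1:40000001-42500000 and chr1:27500001-30000000, both L1-rich, to chr1:147500001-150000000 on 6 to 78 contacts a sample, with log2 changes of 0.74 and 0.72.

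Of the 4 largest falls, 3 joined B1-rich segments. Between chr1:152500001-155000000 and chr1:182500001-185000000, both Q5 and after the window, the unbalanced observed/expected frequency was 1.93 and 2.00 in the SCR AMO samples, from 1815 and 345 contacts, and 1.30 and 1.20 in the L1 AMO samples, from 865 and 648. The log2 change was -0.64, with an adjusted p of 4.68e-19 by edgeR, and -0.41 with bin coverage in the offset. Between chr1:82500001-85000000 (Q4) and chr1:132500001-135000000 (Q5), across the window, it was 1.43 and 1.34 against 0.981 and 0.800, a log2 change of -0.65. The next segment, chr1:85000001-87500000, with chr1:137500001-140000000 had 119 and 17 contacts against 44 and 30 and a log2 change of -0.76, and it holds the least covered bin that stayed. The largest fall, a log2 change of -0.80 between segments at 5.00 and 180.0 Mb, rests on 21 to 92 contacts a sample.

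Set beside chromosomes 2 and 3 by the contrast of eigenvector quintiles, which needs no repeat table, chromosome 1 had the smaller difference. Its log2 contrast differed by -0.30 in the L1 AMO samples, and those of chromosomes 2 and 3 by -0.50 and -0.41. Within a sample, the log2 contrast of chromosome 1 minus the mean of the other 2 was -0.19 and -0.24 in SCR AMO against -0.05 and -0.08 in the L1 AMO samples. The groups did not overlap (exact permutation p = 0.333). Chromosomes 2 and 3 did not have the excess coverage of chromosome 1, and its part in this difference was not tested.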

How the data were processed

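The authors deposited unbalanced counts of contacts for pairs of 500-kb bins, and those of 4 Hi-C samples were used. The submitters' processing notes name HiC-Pro 2.7.1b, CASAVA and mm9, and the removal of duplicates from these matrices is not given in the sources used here. The 2 matrices of each L1 AMO sample were summed. The H3K9me3 ChIP-seq samples were not analysed here. The quintiles, stretches and lists were chosen with earlier results of these data known.

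Bins were numbered along chromosomes 1 to 19, X and Y in mm9, and maps were balanced genome-wide by iterative correction. Observed/expected values used the mean of chromosome 1 at each distance, over pairs at least 2 Mb apart. For a side of the window taken alone the mean was that of the side, and for segment pairs the counts were not balanced. Samples were grouped by their labels and compared with two-sided exact permutation tests. Segments of 5 bins with a mean count of at least 10 per pair were tested with edgeR 4.0.16 (R 4.3.3), and DESeq2 1.42.0 as an alternative. The rest ran in Python 3.11.15 (pandas 2.3.3, scipy 1.17.1, numpy 2.4.6). On simulated counts for the segment pairs edgeR recovered 94% of pairs with a log2 change of 1 and 78% of those with 0.5. Named items were the 4 longest stretches of each kind, the 4 largest rises and 4 largest falls among called segment pairs with groups apart, and the 3 largest shifts each way of single bins in Q1 and Q5.

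Depth ran from 22252054 to 112381720 contacts per sample. Whether the samples of a group come from separate cultures is given by the study's methods and not by the labels, and p-values measure the spread between these samples. Alternatives changed the balancing, the matrix, the coverage minimum, the distance limit, the grading, the expected value, the bin size, the depth, the samples, the pairing and, after the data were seen, the side of the window and the background.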

Additional observations from a re-analysis of the deposited data

Results flagged for a closer look

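Contacts between chromosomes belong to none of the comparisons within chromosome 1. In them, the pair of chr1:130000001-132000000 with chr14:98000001-100000000 stood out in the L1 AMO samples, with 795 and 567 contacts against 16 and 8 under SCR AMO. It was singled out as the 2-Mb pair of chromosome 1 and another chromosome with the most contacts in the L1 AMO samples, and was then read in SCR AMO. Chromosome 14 took 8.19% and 8.38% of the contacts of chromosome 1 with other chromosomes in the L1 AMO samples and 4.49% and 4.58% in the SCR AMO samples. The cause was not tested.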

How the results depend on the processing

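The contrast of chromosome 1 was lower in L1 AMO under all 19 alternatives, with differences from -0.0734 for a cut at the median grade in place of quintiles to -0.759 for the bins after the window alone, and from -0.219 to -0.307 with a sample left out. The replicate block, counted among the 19, has the same mean difference as the main setting by construction and could not turn. The slope and the contrasts at 2 to 10, 10 to 40 and 40 to 80 Mb kept their direction under all alternatives run. Beyond 80 Mb the difference was -0.0764 without balancing and 0.147 with the background between chromosomes taken off, and ran from -0.0204 to 0.0715 with a sample left out. Without balancing 42 bins were higher in preference. Called segment pairs higher and lower in L1 AMO numbered 1597 and 35 with TMM scaling, 1191 and 170 with library totals, 118 and 136 with DESeq2 and 121 and 106 with a least log2 change of 0.2, and ran from 91 to 500 and from 87 to 375 with a sample left out. Direction turned without balancing for Q2-Q5 (-0.000462), Q3-Q4 (0.00328), ks (0.0304), nq (0.0107), ns (0.00764), qT (-0.00412) and sV (-0.00801), with the bins before the window for Q2-Q2 (-0.00402) and Q3-Q4 (0.0250), with those after it for Q3-Q3 (-0.0347), and for MV with the first L1 AMO matrix (0.0168) and with the background off (0.0569). The cause was not tested.

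As a replicate block, differences within replicate numbers gave contrast changes of -0.227 and -0.299 with a mean of -0.263, and the block in edgeR gave 434 pairs higher and 359 lower. The deviations of samples with the same number correlated at 0.0373, so the numbers are not taken to pair the samples. The number of samples limits the contrast, and depth limits pairs beyond 80 Mb, above all in SCR AMO replicate 2.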

Other observations

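Coverage of a part of chromosome 6 also differed between the groups. Over chr6:64000001-84000000, the 20-Mb stretch of that chromosome with the highest value, the median ratio of a bin between L1 AMO and SCR AMO was 1.87, against 0.955 in the rest of the chromosome. The stretch was chosen after its values were seen, and nothing about chromosome 1 was drawn from it.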
